A study of Mus musculus with 3 samples.

Results

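The genes described here move cholesterol and fat into, through and out of macrophages. They are 9 genes chosen by symbol: the nuclear receptor gene Nr1h3, the efflux transporter genes Abca1 and Abcg1, the apolipoprotein genes Apoe and Apoc2, the lipase gene Lpl, the lysosomal cholesterol exporter gene Npc1, the cholesterol esterification gene Soat1 and the lipid droplet gene Plin2. Each symbol matched 1 NCBI mouse gene ID, so all 9 were found among the 17615 genes listed in any library.

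The RNA came from splenic macrophages of C57BL/6J mice with acute myeloid leukemia, sorted on day 18 as cells without GR1, with intermediate CD115 and with F4/80. There was 1 library each from mice whose leukemia had a high mM-CSF level, a high sM-CSF level, or neither, the control. All recipients were 6 to 8 weeks old, were not irradiated and received 800000 leukemia cells marked with GFP and BFP. The labels give 30 to 40 days as the survival in this model. M-CSF is the growth factor of macrophages, and its prefixes m and s are not explained in the labels. How the level was raised, and how many mice gave each library, is not given in the sources used here. With no replicates, no difference between groups could be tested, and every difference below describes these 3 libraries. Intervals on counts are 95% intervals of counting error only.

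Macrophages take up lipoproteins and dying cells and so receive cholesterol they cannot break down. NPC1 carries it out of the lysosome, SOAT1 esterifies the surplus for storage, and perilipin 2, the product of Plin2, coats the droplets in which such esters are kept. Oxysterols made from surplus cholesterol activate LXRalpha, the product of Nr1h3, which switches on Abca1, Abcg1, Apoe, Apoc2, Lpl and, in human macrophages, the gene of LXRalpha itself. ABCA1 loads cholesterol onto lipid-poor apolipoprotein A-I, ABCG1 passes it to HDL, and apolipoprotein E is a secreted acceptor.

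Abca1 and Apoc2 were the members furthest below control in the mM-CSF library, and the start of their promoters is shown because both are known LXR targets. The windows are RefSeq sequence of GRCm38.p6 on the minus strand and end at the base before the annotated start, at chr4:53159896-53160145 for Abca1 and chr7:19677942-19678081 for Apoc2. Capitals in the Abca1 window mark, from the left, an E-box, an LXR-type repeat and a TATA box, and in the Apoc2 window a single nuclear receptor hexamer.
Abca1: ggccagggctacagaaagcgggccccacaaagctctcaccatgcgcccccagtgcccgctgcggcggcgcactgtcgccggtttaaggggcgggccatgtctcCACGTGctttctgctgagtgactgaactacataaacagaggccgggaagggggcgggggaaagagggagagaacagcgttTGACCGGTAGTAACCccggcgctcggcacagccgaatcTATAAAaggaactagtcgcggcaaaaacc
Apoc2: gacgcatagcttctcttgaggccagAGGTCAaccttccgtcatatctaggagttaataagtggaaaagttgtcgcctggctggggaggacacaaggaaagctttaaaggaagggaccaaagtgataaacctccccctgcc

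LXR binds as a pair with RXR to direct repeats of a hexamer spaced by 4 bases, a pattern called DR4. The Abca1 repeat reads GGTTANNNNCGGTCA on the opposite strand, lies 67 to 53 bases before the start, and was found in 4 of 32851 promoter windows of 250 bases (0.0122%) searched on both strands. That spelling was chosen after the Abca1 window had been read. The consensus repeat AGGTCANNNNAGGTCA was in 0.0152% of windows and in none of the 9 windows available for 6 of the members. The same was true of the PPAR-type repeat AGGTCANAGGTCA (0.0335% of windows). The lone hexamer AGGTCA, which is part of both repeats, occurred in 14% of windows and in those of Apoc2 and Plin2. The E-box CACGTG was in 6.02% and TATAAA in 12.4% of windows. These matches describe letters in the windows and were not tested as sites.

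Levels are given as FPKM, which is per kilobase of gene. Differences between libraries still ran with gene length, as described below, and the orders and ratios of genes given here were not adjusted for that. Apoe was by far the highest of the 9 genes in every library, at rank 129 of all genes in the mM-CSF, 152 in the sM-CSF and 140 in the control library. Abca1 was the lowest of the 9 in every library. Below Apoe the order changed: Nr1h3 and Lpl came next in the mM-CSF library, and Abcg1 and Nr1h3 in the sM-CSF and control libraries. In the control library Lpl was the second lowest, at 15.5 FPKM, and Apoc2 the fifth highest, at 30.4 FPKM. In the mM-CSF library Apoc2 was the second lowest, at 5.62 FPKM.

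**Figure D1:**
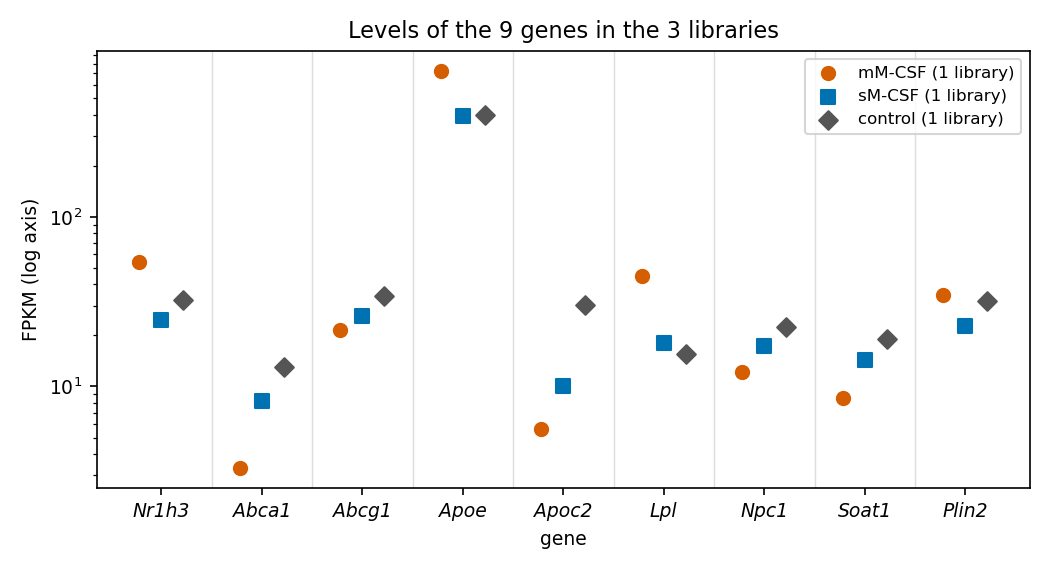
FPKM on a log axis of the 9 genes in the mM-CSF, sM-CSF and control libraries, 1 point per library. Apoe lies above 390 FPKM in all libraries, Lpl is highest in the mM-CSF library at 44.7 FPKM, and Apoc2 and Abca1 are lowest there at 5.62 and 3.31 FPKM.

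Nr1h3 had 53.9 FPKM in the mM-CSF, 24.75 FPKM in the sM-CSF and 32.3 FPKM in the control library, from 852, 407 and 544 estimated reads. The mM-CSF library was thus the high one, and the sM-CSF library lay below control. The genes of the sister receptor and of a binding partner are given beside it. Nr1h2, which encodes LXRbeta, was at 72.5, 68.7 and 58.7 FPKM in the mM-CSF, sM-CSF and control libraries, and Rxra, the gene of an RXR partner, at 18.1, 13.4 and 15.7 FPKM.

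Abca1 had 3.31 FPKM in the mM-CSF, 8.17 FPKM in the sM-CSF and 13.0 FPKM in the control library (297, 761 and 1227 reads). Abcg1 had 21.5 FPKM in the mM-CSF, 25.9 FPKM in the sM-CSF and 34.0 FPKM in the control library (1090, 1362 and 1819 reads). The libraries stood in the same order for both transporters, with mM-CSF lowest and control highest, but the spread was wider for Abca1. The FPKM ratio of Abcg1 to Abca1 was 6.49 in the mM-CSF, 3.16 in the sM-CSF and 2.62 in the control library. Abca1 is the longer gene, at 10260 against 5821 bases, and these ratios keep the length trend.

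Apoe had 727 FPKM in the mM-CSF, 390 FPKM in the sM-CSF and 396 FPKM in the control library (7979, 4445 and 4574 reads), so the sM-CSF and control libraries lay close together and the mM-CSF library above both. Apoc2, whose product apolipoprotein C-II is the activating cofactor of lipoprotein lipase, went the other way, at 5.62, 10.0 and 30.4 FPKM in the mM-CSF, sM-CSF and control libraries. Its reads were few, at 33, 57 and 194. Apoe and Apoc2 lie in a single gene cluster with Apoc1 and Apoc4. Apoc1, a short gene whose product restrains lipoprotein uptake and lipase action, was at 17.9, 7.49 and 4.93 FPKM in the mM-CSF, sM-CSF and control libraries and so followed the order of Lpl, not that of Apoc2. Apoc4 was listed in 0 libraries, as was an annotated Apoc4-Apoc2 read-through gene that overlaps Apoc2 on the same strand. Reads shared by these transcripts could not be told apart, which makes the level of Apoc2 uncertain. The counts of Apoc2 were whole in every library. Its gene length differed between libraries, at 706, 661 and 727 bases in the mM-CSF, sM-CSF and control libraries.

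Lpl had 44.7 FPKM in the mM-CSF, 18.04 FPKM in the sM-CSF and 15.5 FPKM in the control library (1573.11, 659.56 and 575.83 reads). Lipoprotein lipase, its product, releases fatty acids from triglyceride-rich lipoproteins. The mM-CSF library stood far above the other libraries, which lay close together. The counts of Lpl and Soat1 were not whole, so part of their reads had been divided by the authors' estimation. Apoc2 and Lpl thus went in opposite directions. The FPKM ratio of Lpl to Apoc2 was 7.95 in the mM-CSF, 1.8 in the sM-CSF and 0.511 in the control library.

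Npc1 had 12.1 FPKM in the mM-CSF, 17.2 FPKM in the sM-CSF and 22.4 FPKM in the control library (550, 812 and 1069 reads). Soat1 had 8.51 FPKM in the mM-CSF, 14.4 FPKM in the sM-CSF and 19.1 FPKM in the control library (354.43, 623.33 and 838.34 reads). Both had the order of the efflux transporters, lowest in the mM-CSF and highest in the control library. An antisense gene overlaps Npc1, and reads of that gene may be included if counting ignored the strand, which the sources used here do not state. Plin2 had 34.4 FPKM in the mM-CSF, 22.7 FPKM in the sM-CSF and 31.9 FPKM in the control library (559, 382 and 545 reads), so here the sM-CSF library was the low one.

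The comparison of mM-CSF with control leukemia asks which of these genes differ when the leukemia has much mM-CSF. Lpl was higher, and Apoc2, Abca1 and Soat1 were lower, while Apoe, Nr1h3, Npc1, Abcg1 and Plin2 stayed within 2-fold. A gene was called higher or lower at a difference of log2(FPKM + 1) of 1 or more (2-fold), given 5 FPKM in the library where it was higher. This log scale understates changes of low genes. All 9 genes had that minimum. By this rule 1 member was higher, against 8.97% of the 9789 genes with the minimum, and 3 were lower, against 15.1%. The median difference over the 9 genes was -0.64, against -0.07 over 12362 genes with a mean of at least 1 FPKM, and these medians were -0.11 and -0.01 with a trend on gene length removed. All calls together were 37.2% higher, a share that was 6.54% with TPM, 48.6% with TMM and 54.2% with upper-quartile scaling, and 26.7% with the length trend removed. In RNA from a sorted population, fewer cells of a type and less RNA per cell cannot be told apart.

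Apoc2 differed by -2.25 in log2(FPKM + 1), and its share of all reads was 5.54-fold lower (interval 3.82 to 8.28). Abca1 differed by -1.70, with a share 3.9-fold lower (3.43 to 4.44). Soat1, at -1.08, lay just past the limit, with a share 2.23-fold lower (1.97 to 2.53), and fell short of it with a pseudocount of 5 (-0.84), TMM (-0.97) and upper-quartile scaling (-0.91). These are a lipase cofactor, an efflux transporter and a storage enzyme, so the lower genes do not belong to a single step of lipid handling.

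Lpl differed by 1.47, with a 2.90-fold higher share of reads (2.63 to 3.19). Apoe (0.88) and Nr1h3 (0.72) were above control but short of 2-fold, at 1.85-fold (1.78 to 1.92) and 1.66-fold (1.49 to 1.85) of the control share. Npc1 (-0.83) and Abcg1 (-0.64) were below control and short of 2-fold. The interval of the share of Plin2, 0.965-fold to 1.23-fold of control, included no difference.

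**Figure D2:**
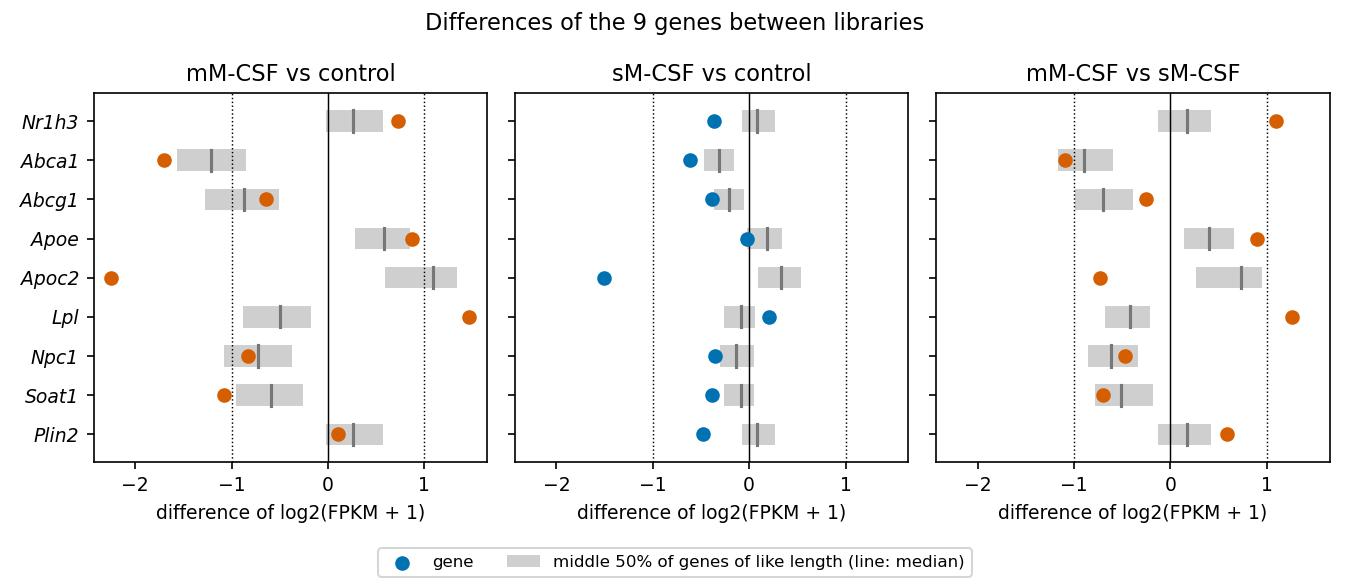
Differences of log2(FPKM + 1) for the 9 genes in the 3 comparisons, with the group named first minus the other; grey bars span the middle 50% of genes of like length, with their median, and dotted lines mark the 2-fold limit. Against control, Lpl (1.47) and Apoc2 (-2.25) in the mM-CSF library and Apoc2 (-1.51) in the sM-CSF library lie far from the bars.

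Differences between the mM-CSF and control libraries ran with gene length, and the members span a wide range of it. The median difference was 1.09 among the shortest of 20 equal classes of genes (up to 749 bases) and -1.21 among the longest (from 6982 bases). Abca1, at 10260 bases, lies in the longest class, where the middle 50% of genes spanned -1.57 to -0.85. Its -1.70 thus lay a little below that span, and with the class median subtracted it was -0.49. Soat1 (4785 bases) was likewise at -0.49 after subtraction, and neither passed 2-fold then. Npc1 and Abcg1 lay inside the span of their classes, at -0.11 and 0.23 after subtraction, so that the direction of Abcg1 turned.

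Lpl and Apoc2 went against their length classes. Genes as long as Lpl (4049 bases) had a median of -0.49, and Lpl was at 1.96 after subtraction. Genes as short as Apoc2 (697.8 bases on average over libraries) had a median of 1.09, and Apoc2 was at -3.33. With the trend removed these were the members past 2-fold, 1 higher and 1 lower, against 2.91% and 7.98% of all genes. Apoe (0.29) and Nr1h3 (0.46) kept their direction, and Plin2 (-0.16) turned. The part of gene length in the differences was not tested further.

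**Figure D3:**
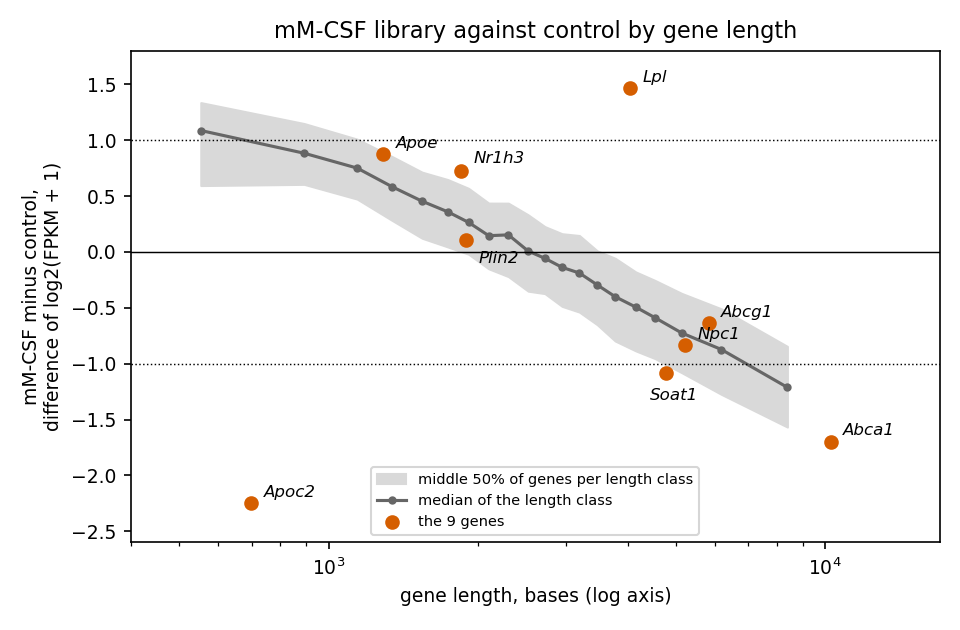
Difference of log2(FPKM + 1) between the mM-CSF and control libraries against gene length on a log axis; the line and grey band are the median and middle 50% of all genes in 20 length classes, and dotted lines mark 2-fold. Npc1, Abcg1 and Plin2 lie inside the band, while Lpl (1.47) lies far above it and Apoc2 (-2.25) far below.

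The comparison of sM-CSF with control leukemia asks the same of leukemia with much sM-CSF. Apoc2 was the only member called, and it was lower. Abca1, Plin2, Abcg1, Soat1, Nr1h3 and Npc1 lay below control by less than 2-fold, Apoe was level with control and Lpl slightly above. The call covers 1 of 9 genes lower and 0 higher, against 1.63% and 0.785% of 9683 genes. The median over the 9 genes was -0.38, against 0.02 over all genes. Of all calls 32.5% were higher, which was 19.6% with TPM scaling and 21.6% with the length trend removed. This comparison shares its control library with the previous one.

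Apoc2 differed by -1.51, with a 3.35-fold lower share of reads (interval 2.48 to 4.58), and by -1.84 with the length trend removed. Abca1 followed at -0.61 (1.59-fold lower share, 1.45 to 1.74), with Plin2 at -0.47, Abcg1 and Soat1 at -0.38, Nr1h3 at -0.37 and Npc1 at -0.36. Apoe differed by -0.02, and the interval of its share, 0.947-fold to 1.03-fold of control, included no difference. Lpl was at 0.20, with an interval of 1.04-fold to 1.30-fold. The length classes differed less here, with medians of -0.31 for the class of Abca1 and 0.33 for that of Apoc2.

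The comparison of mM-CSF with sM-CSF leukemia asks how the forms differ. Lpl and Nr1h3 were higher and Abca1 was lower in the mM-CSF library. The count of 2 higher and 1 lower among the 9 genes stood against 3.79% and 8.73% of 9574 genes. The median over the 9 genes was -0.26, against -0.11 over all genes, and turned to 0.41 with the length trend removed. Higher calls were 30.3% of all calls, against 6.59% with TPM, 48.7% with median-of-ratios, 49.3% with TMM and 54.5% with upper-quartile scaling.

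Lpl differed by 1.26 (2.49-fold higher share, interval 2.27 to 2.73) by 1.68 without the length trend, and by 0.95, short of 2-fold, with TPM scaling. Nr1h3 differed by 1.09 (2.18-fold, 1.94 to 2.46) and fell short of 2-fold without the trend (0.92), with a pseudocount of 5 (0.99) and with TPM scaling (0.78). Abca1 differed by -1.09 (2.46-fold lower share, 2.14 to 2.82), against -0.20 without the trend, -0.66 with a pseudocount of 5, and -0.98 to -0.95 with median-of-ratios, TMM and upper-quartile scaling. Apoe, at 0.90, was short of 2-fold, but past it with median-of-ratios (1.03), TMM (1.03) and upper-quartile scaling (1.07), and was at 0.58 with TPM and 0.50 without the trend. Apoc2 was at -0.74, with a wide interval of 1.06-fold to 2.62-fold lower, and passed 2-fold without the trend (-1.47) and with TPM scaling (-1.01). With TPM scaling the members past 2-fold were thus Abca1 and Apoc2, both lower, and none was higher. Without the trend the members past 2-fold were thus Lpl, 1 higher gene against 2.05% of all genes, and Apoc2, 1 lower gene against 4.66%. Of the others, Plin2 was at 0.58, Soat1 at -0.70, Npc1 at -0.47 and Abcg1 at -0.26. Without the trend Soat1 was at -0.19, and the directions of Npc1 (0.14) and Abcg1 (0.44) turned.

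Around the 9 genes, 154 others on 9 lists of lipid handling were read, of which 148 matched a gene in the tables and 12 stood on more than 1 list. In the mM-CSF library 6 were higher and 17 lower than control among 111 with the minimum (5.41% and 15.3%), beside 8.97% and 15.1% of all genes. In the sM-CSF library 0 were higher and 4 lower among 108 (3.70%), beside 0.785% and 1.63% of all genes. The lower genes there were Fabp4, Lrp1, Pparg and Smpdl3a.

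Of 13 LXR target genes beyond the members, 1 was higher (7.69%) and 3 were lower (23.1%) in the mM-CSF library against control. The shares of all genes were 8.97% and 15.1%. The median of the list was -0.58 (-0.10 without the length trend). Tgm2, a transglutaminase gene, was at 29.3, 71.7 and 104 FPKM in the mM-CSF, sM-CSF and control libraries, and stayed past 2-fold against control without the trend (-1.49). Mertk, a receptor gene for dying cells, was at 17.8, 25.6 and 42.15 FPKM, and the desaturase gene Scd2 at 21.2, 36.4 and 47.0 FPKM. Neither Mertk (-0.91) nor Scd2 (-0.39) passed 2-fold without the trend. Apoc1 was the higher gene, and its difference of 1.67 was 0.58 without the trend. In the sM-CSF library Smpdl3a, the gene of an LXR-induced phosphodiesterase, was the 1 lower gene of the list, at 40.7, 40.1 and 81.7 FPKM in the mM-CSF, sM-CSF and control libraries. In the mM-CSF library 2 genes of this list were higher and 2 lower than in the sM-CSF library (15.4% each), beside 3.79% and 8.73% of all genes. Without the trend 1 was higher (Cd5l) and 1 lower (Tgm2). Cd5l, a gene of a secreted macrophage scavenger protein, was at 119 FPKM in the mM-CSF, 40.7 in the sM-CSF and 68.9 in the control library. The desaturase gene Scd1, at 36.8, 90.9 and 68.8 FPKM, was lower in the mM-CSF than in the sM-CSF library, but not past 2-fold without the trend (-0.67).

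Receptors that take up lipoproteins had the lowest list median in the mM-CSF library against control. Their median was -0.95, but -0.13 without the length trend. Of 9 genes 5 were lower and 0 higher, beside 15.1% and 8.97% of all genes, and 3 were lower without the trend. The endocytic receptor gene Sorl1 was at 7.05, 25.03 and 39.4 FPKM in the mM-CSF, sM-CSF and control libraries, and the scavenger receptor gene Cd36 at 5.92, 13.6 and 25.8 FPKM. Both stood in the order of Abca1, and both stayed past 2-fold against control without the trend (-1.45 and -1.66). The apolipoprotein E receptor gene Lrp8, at 1.37, 4.08 and 6.01 FPKM, and Lrp1, at 19.3, 21.5 and 47.0 FPKM, did not. Lrp1 was the 1 lower gene of this list in the sM-CSF library.

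Genes of cholesterol synthesis and other SREBP2 targets were called lower about as often as all genes in the mM-CSF library. Of 22 with the minimum, 3 were lower (13.6%) and 0 higher than control there, beside 15.1% and 8.97% of all genes. In the sM-CSF library 0 of 21 passed, beside 1.63% lower and 0.785% higher of all genes. Among the lower genes was the sterol carrier gene Stard4, at 2.59, 4.77 and 7.38 FPKM in the mM-CSF, sM-CSF and control libraries, which stayed past 2-fold without the length trend (-1.08). Endolysosomal cholesterol genes had 0 of 13 past 2-fold in either comparison with control, beside the same shares of all genes. Npc2, whose product hands cholesterol to NPC1, was at 107, 70.7 and 59.8 FPKM and so ran opposite to Npc1. Its difference in the mM-CSF library against control was 0.83, and 1.02 without the length trend.

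Among lipid-sensing factors, 3 of 13 were lower (23.1%) and 0 higher in the mM-CSF library against control, beside 15.1% and 8.97% of all genes. Their median of -0.25 turned to 0.16 without the length trend. Nrip1, which encodes a corepressor of nuclear receptors, was at 0.51, 5.82 and 11.7 FPKM in the mM-CSF, sM-CSF and control libraries and stayed low without the trend (-2.49). Ncor1, another corepressor gene (26.5, 42.2 and 54.1 FPKM), did not stay past 2-fold, and its direction turned. Pparg, the gene of a fatty acid receptor, was the 1 lower gene in the sM-CSF library against control, at 19.3, 13.8 and 30.6 FPKM in the mM-CSF, sM-CSF and control libraries.

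Droplet and fatty acid genes went both ways. Of 16 droplet genes 1 was higher (6.25%) and 2 lower (12.5%) in the mM-CSF library against control, near the 8.97% and 15.1% of all genes. The higher gene was Bscl2, which encodes the droplet assembly factor seipin, at 92.3, 51.1 and 41.8 FPKM in the mM-CSF, sM-CSF and control libraries (1.12, and 0.67 without the trend). The lower genes were the acyl-CoA synthetase gene Acsl1, at 6.48, 10.8 and 15.3 FPKM, and the phosphatidate phosphatase gene Lpin1, at 4.96, 9.20 and 11.0 FPKM. Neither stayed past 2-fold without the trend (-0.72 and -0.28). Without the trend 2 other genes of this list were lower there than control, the short genes Fabp4 (-1.86) and Fabp5 (-1.09). Fabp5 was at 36.9, 28.25 and 42.8 FPKM in the mM-CSF, sM-CSF and control libraries. Fabp4, a fatty acid carrier gene, was at 16.5, 5.76 and 28.9 FPKM, so that the sM-CSF library was its low one, as for Plin2 and Pparg. Fatty acid uptake and oxidation genes had 2 of 19 higher (10.5%) and 1 lower (5.26%) in the mM-CSF library against control. Without the trend 1 was higher and 3 were lower, Cd36, Fabp4 and Fabp5. The 2 higher genes were Etfb (158, 54.5 and 41.2 FPKM), for an electron carrier of oxidation, and Eci1 (44.0, 25.9 and 18.3 FPKM). Etfb stayed past 2-fold without the trend (1.04) and Eci1 did not (0.47).

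Partners of the lipase and the apolipoproteins were the list with the highest median in the mM-CSF library against control, 0.76 (0.39 without the length trend). Of 8 genes 3 were higher and 0 lower, beside 8.97% and 15.1% of all genes, and 1 was higher without the trend. Besides Apoc1, these were the hepatic lipase gene Lipc, at 5.17, 2.2 and 1.48 FPKM in the mM-CSF, sM-CSF and control libraries, and Angptl4, which encodes an inhibitor of lipoprotein lipase, at 10.3, 4.50 and 4.49 FPKM. Lipc stayed past 2-fold without the trend (1.05) and Angptl4 did not (0.77). Cyp27a1, whose enzyme makes an oxysterol that activates LXR, was lower in the mM-CSF than in the sM-CSF library, at 21.7, 50.6 and 35.7 FPKM in the mM-CSF, sM-CSF and control libraries (-1.18, and -1.36 without the trend). Lmf1, a factor that matures the lipase, was at 17.3, 11.8 and 9.31 FPKM, short of 2-fold. Of the other transporters of the ABCA, ABCD and ABCG families, 2 of 8 were lower (25%) and 0 higher than control in the mM-CSF library. The shares of all genes were 15.1% and 8.97%. Their median of -0.71 was -0.18 without the length trend. Abca3 was at 9.10, 19.7 and 25.2 FPKM and Abca7 at 14.0, 27.1 and 30.1 FPKM, and neither stayed past 2-fold without the trend.

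**Figure D4:**
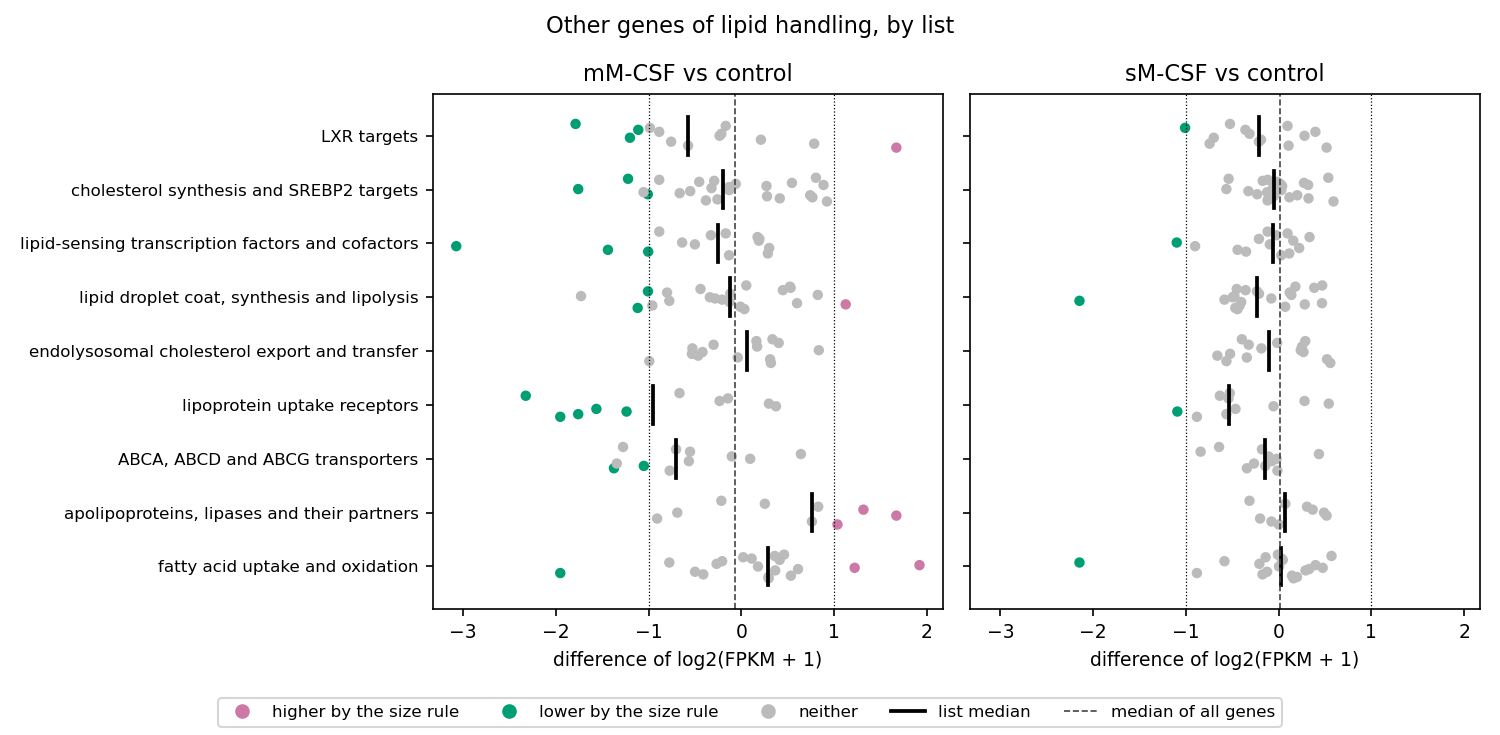
Differences of log2(FPKM + 1) from control for the other genes of the 9 lists with a mean of at least 1 FPKM, for the mM-CSF (left) and sM-CSF (right) libraries; bars are list medians, the dashed line the median of all genes, and coloured points passed 2-fold with the minimum of 5 FPKM. In the mM-CSF library uptake receptors have a median of -0.95 and apolipoprotein and lipase partners of 0.76.

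Genes most like Abca1, Apoe and Plin2 across the 3 libraries were sought among 5120 genes reaching 20 FPKM, by the distance between their pairs of log2 differences from control. Nearest to Abca1 was Mef2a (distance 0.015), a transcription factor gene at 9.61, 21.7 and 33.8 FPKM in the mM-CSF, sM-CSF and control libraries, followed by Hcfc1 and Fgl2. Nearest to Apoe were Ost4 (0.016), Cndp2 and Itpa. Nearest to Plin2 were Tacc3 (0.020), Slc11a1, an iron transporter gene of macrophage phagosomes, and Hmox1, the heme oxygenase gene, at 392, 247 and 354 FPKM. With 3 libraries such likeness is loose.

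Markers of macrophages and of other cells also differed between the libraries. Their summed FPKM was not adjusted for gene length, with which the differences between libraries ran. C1qb, for 1, has 1062 bases and Itgax 4025. The FPKM of all genes summed to 624000 in the mM-CSF, 500000 in the sM-CSF and 452000 in the control library. The part of gene length in the marker sums was not tested. All 10 macrophage markers reached 5 FPKM in every library, with a summed level of 952 FPKM in the mM-CSF, 864 in the sM-CSF and 1600 in the control library, and Lyz2 and Cd68 were the highest of them. Lyz2, a lysozyme gene, was at 205, 282 and 784 FPKM and made most of the gap of both other sums to control, while Cd68 was at 284, 214 and 245 FPKM. Summed levels of non-classical monocyte markers (334, 474 and 1110 FPKM over 8 genes, led by Nr4a1 and Treml4) and of conventional dendritic cell markers (372, 598 and 658 FPKM over 8, led by Cd24a and Itgax) stood in the order of Abca1, Abcg1, Apoc2, Npc1 and Soat1. Of each list 7 were called lower in the mM-CSF library than in control, beside 15.1% of all genes. Cd24a, at 318, 321 and 335 FPKM, made most of the dendritic cell sum in every library and was not among them. Treml4 (112, 94.0 and 147 FPKM) and Cd300e (54.0, 37.3 and 121 FPKM) were lowest in the sM-CSF library, against the order of their sum. Red pulp macrophage markers (5180, 2150 and 1950 FPKM over 10, led by C1qb and C1qc), neutrophil markers (267, 59.4 and 54.5 FPKM over 8, led by S100a8 and S100a9), plasma cell markers (4420, 1460 and 1400 FPKM over 7, led by Jchain and Mzb1) and NK cell markers (553, 358 and 291 FPKM over 8, led by Nkg7 and Gzma) were highest in the mM-CSF library, as Lpl was. Myeloid granule and progenitor markers were at 848, 203 and 200 FPKM over 7 genes, led by Elane and Mpo. Of this list 5 genes were called higher and 1 lower in the mM-CSF library than in control, beside 8.97% and 15.1% of all genes. The lower gene, Kit, went against the sum, with a difference of -2.36 from control and of -2.35 from the sM-CSF library. Summed levels of B cell markers (2780, 2610 and 1400 FPKM over 8, led by Cd79a and Cd79b) and T cell markers (511, 430 and 250 FPKM over 7, led by Lck and Cd3g) were lowest in the control library. Of the T cell list 4 genes were called higher and 1 lower in the mM-CSF library than in control, beside 8.97% and 15.1% of all genes. The lower gene, Cd4, was lowest in the mM-CSF library, at 28.7, 82.4 and 62.8 FPKM in the mM-CSF, sM-CSF and control libraries. Erythroid markers summed to 3600, 3210 and 4330 FPKM over 8 genes, led by Hba-a1 and Hbb-bs, and platelet markers to 15.9, 9.20 and 12.0 FPKM over 5, led by Pf4 and Itga2b. Endothelial and stromal markers summed to 44.0, 57.9 and 61.0 FPKM over 8 genes, nearly all of it Pecam1 (43.2, 55.8 and 57.5 FPKM), which blood cells also express. Kdr was at 0.13, 0.69 and 1.95 FPKM, and Gpihbp1, the capillary anchor of the lipase, did not pass 0.14 FPKM. Of the endothelial and stromal markers 1, 2 and 1 were at 0 in the mM-CSF, sM-CSF and control libraries, and no marker of another list was at 0. The part of other cell types in the differences of the 9 genes was not tested.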

How the data were processed

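RNA of 3 sorted macrophage populations, 1 library per group, was sequenced on a BGISEQ-500 from 1 ug of total RNA, per the labels' protocols. Bowtie2 (version 2.2.5) and RSEM appear in the submitters' processing notes, with no role stated. Genome build and annotation are not given in the sources used here. Per the file headers, the authors deposited an expected count (the estimated reads of a gene, 75.7% to 76.7% of them whole within 0.005), a gene length and an FPKM value, scaled by the authors per kilobase of gene and to the mapped fragments of the library. Total estimated counts were 8.57e+06 (mM-CSF), 8.94e+06 (sM-CSF) and 9.09e+06 (control), so 3 reads equal 0.350, 0.335 and 0.330 CPM. Genes not listed were taken as 0.

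Symbols came from a GRCm38.p6 reference table (all but 54 of 17615 genes), and promoters from RefSeq of that build. Differences are of log2(FPKM + 1). Ratios of read shares have exact conditional (Clopper-Pearson) 95% intervals from rounded counts. The length trend was the median difference in 20 classes of genes at 5 FPKM or more on average. The calling steps were run on simulated counts with set changes. These counts had no length trend and no spread between replicates, so that run says nothing of the calls in these libraries. Python 3.11.15, scipy 1.17.1 and, for TMM factors, edgeR 4.0.16 were used. The alternatives were 2 pseudocounts, 2 minima, 4 scalings, a common gene length, removal of the length trend and 2 size rules.

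From each list, up to 4 genes past the rule with the largest differences were named, and from each marker list the 2 highest genes. The members, lists and settings were chosen with earlier results of these data known. Nr1h2, Rxra, Npc2 and Lmf1, Lrp1 in the mM-CSF library, Gpihbp1, and the ratios of members were named after their values were seen. So were Fabp5 and the markers C1qa, Cd163, Cxcr2, Gzmb, Cd300e, Kit, Cd22 and Cd4. Some genes of the lists are counted but not reported by name here.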

Additional observations from a re-analysis of the deposited data

How the results depend on the processing

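Of the 27 differences of members (9 genes in 3 comparisons), none that passed 2-fold changed sign under the 8 alternatives on pseudocount, scaling and length. Lpl (1.02 to 1.96) and Apoc2 (-3.33 to -1.74) stayed past 2-fold against control in the mM-CSF library under all 8, as did Apoc2 in the sM-CSF library (-1.84 to -1.24). Abca1 against control in the mM-CSF library ranged from -2.09 with TPM to -0.49 with the length trend removed, and Soat1 from -1.51 to -0.49. TPM scaling moved the median of all genes by -0.40 in that comparison, by -0.13 for sM-CSF against control and by -0.27 for mM-CSF against sM-CSF; upper-quartile scaling moved it by 0.16, 0.01 and 0.15, TMM by 0.10, -0.01 and 0.12, and median-of-ratios by 0.07, -0.04 and 0.11. Under TPM Abcg1 and Npc1 also passed 2-fold against control in the mM-CSF library, and Plin2 turned to -0.34, while Apoe passed it with upper-quartile scaling (1.06).

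In the order mM-CSF against control, sM-CSF against control and mM-CSF against sM-CSF, 4, 1 and 3 members were called. A 1.5-fold rule gave 8, 2 and 6, and a 3-fold rule 2, 0 and 0. Removal of the length trend gave 2 in the mM-CSF library against control, and a pseudocount of 5 gave 1 in the mM-CSF library against sM-CSF. Over all genes the counts were 2358, 234 and 1199. They were 4793, 969 and 3559 with the 1.5-fold rule, 703, 66 and 272 with the 3-fold rule, and 1334, 109 and 537 with a pseudocount of 5. Removal of the trend gave 1066 and 642 for the comparisons of the mM-CSF library, and a minimum of 1 FPKM gave 400 for sM-CSF against control. A limit of all values is the lack of replicates, and of Apoc2 its 33 reads in the mM-CSF library. No paired analysis was possible because each group has 1 library.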
